A study of Mus musculus with 16 samples.

Results

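The response of BCR-ABL1p185+ mouse leukemia lines to the kinase inhibitor Senexin B was measured by RNA-seq in 8 lines, each sequenced once after the inhibitor and once after the solvent. All 16 of the 16 libraries of the series entered one pooled comparison, in which every line served as its own control. A line was identified by its genotype and replicate number, and the effect of Senexin B was the difference between the Senexin B and the control library of the same line. The lines came from bone marrow of C57BL/6N mice and were transformed with a retrovirus carrying BCR-ABL1p185. Of the 8 lines, 4 were labelled wildtype, given as Cdk8 fl/fl in the study's methods, and 4 were labelled Cdk8 KO, in which a Cre recombinase driven by the Vav promoter had deleted Cdk8 in blood-forming cells. Cells received 1 µM Senexin B or 0.01% DMSO for 48 h. No library was left without transformation, so every value below is a value in BCR-ABL1p185+ cells.

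CDK8 and its paralog CDK19 are kinases of the Mediator complex, which links transcription factors to RNA polymerase II. Either kinase pairs with cyclin C and with MED12 and MED13, and together they form a module that can raise or dampen the output of bound transcription factors, among them STAT proteins that carry cytokine and interferon signals. Senexin B blocks the catalytic site of both kinases. BCR-ABL1 is a permanently active tyrosine kinase that drives acute leukemia of early B cells.

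The libraries held between 13145876 and 18349425 counts in genes. Senexin B libraries had a median of 14901595.5 counts and control libraries of 15701018. The total was higher with Senexin B in 5 of 8 lines (two-sided exact permutation test over signs within lines, p = 0.672). The 50 most abundant genes took a share of counts that was 1.90 percentage points higher on average with Senexin B (exact permutation test, p = 0.0469, adjusted over 4 library measures 0.188), and the mitochondrial share was 1.25 points higher (exact permutation p = 0.125). The smallest p that 8 lines allow is 0.0078. All 20 early B-cell genes examined had a mean of at least 1 count per 1000000 counts (CPM), and Vpreb3 led them with 2519 CPM. Markers of other cells were mostly low. Of 11 T-cell markers 1 reached a mean of 1 CPM (Lck, 64.4 CPM), of 12 myeloid markers 2 (Cd68, 8.2 CPM, and Lyz2, 3.98 CPM), and of 9 NK and plasmacytoid markers 3, Klrb1c with 9.41 CPM among them. Of 11 erythroid and megakaryocyte markers 1 did (Hbb-bt, 74.8 CPM), and of 9 stromal markers 1 (Pecam1, 223 CPM). Cd3g, Bcl11b, S100a8, S100a9, Elane, Ncr1, Gzmb, Pf4 and Col3a1 were at 0 in every library. In controls Cdk8 stood at 61.5 to 69.1 CPM in the 4 wildtype lines and at 35.4 to 52.3 CPM in the 4 Cdk8 KO lines, without overlap. Gene counts cover all exons and cannot separate a deleted exon from the rest.

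The lines did not respond alike. Across 8865 well-expressed genes, the differences of wildtype line 1 correlated with those of Cdk8 KO line 1 (Pearson r = 0.72) and Cdk8 KO line 2 (r = 0.51), but not with those of wildtype lines 2 (r = -0.10), 3 (r = -0.17) and 4 (r = -0.17). Wildtype lines 3 and 4 had r = 0.71 with each other. Genes of one library are not independent of each other, so these values are descriptive and carry no test. The text therefore says which of the genes it names as higher or lower lost that call when a line was left out.

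Of 12984 genes tested, 104 passed the limits named in the study's methods, a fold change above 2 with an adjusted p below 0.05 (edgeR quasi-likelihood test with the line as a block, Benjamini-Hochberg adjustment). They made up 0.801% of the genes, with 57 higher (0.439%) and 47 lower (0.362%) in Senexin B. Without the fold limit 332 genes passed (2.56%), 135 higher (1.04%) and 197 lower (1.52%). The difference had the same sign in 8 of 8 lines for 614 genes (4.73%), 272 higher (2.09%) and 342 lower (2.63%). Both the adjusted p limit and the same sign in 8 of 8 lines were met by 1.97% of the genes, 96 higher (0.739%) and 160 lower (1.23%). Adding the fold limit left 73 genes (0.562%), 37 higher (0.285%) and 36 lower (0.277%). The other 31 genes past both limits moved against the pooled direction in 1 line or were tied there. The scaling of the libraries sets the median log2 fold change of all genes near 0, and it was -0.01.

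The result depended on comparing each line with itself. Without the line as a block 0 genes passed (edgeR, 649 genes at unadjusted p under 0.05), and the adjusted p of Csf2rb2 was then 0.0743. Leaving out a line gave 63 to 150 genes past both limits. Wildtype line 3 was the most costly to leave out, and 49 of the 104 genes passed both limits in each of the 8 fits. No gene passed a test of whether the effect of Senexin B differed between genotypes (edgeR interaction, smallest adjusted p = 0.978, 425 genes at unadjusted p under 0.05; DESeq2 also called 0, with 383 genes at unadjusted p under 0.05). Without wildtype line 1 the interaction again called 0 genes, but 1771 of 13000 had an unadjusted p under 0.05.

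**Figure D1:**
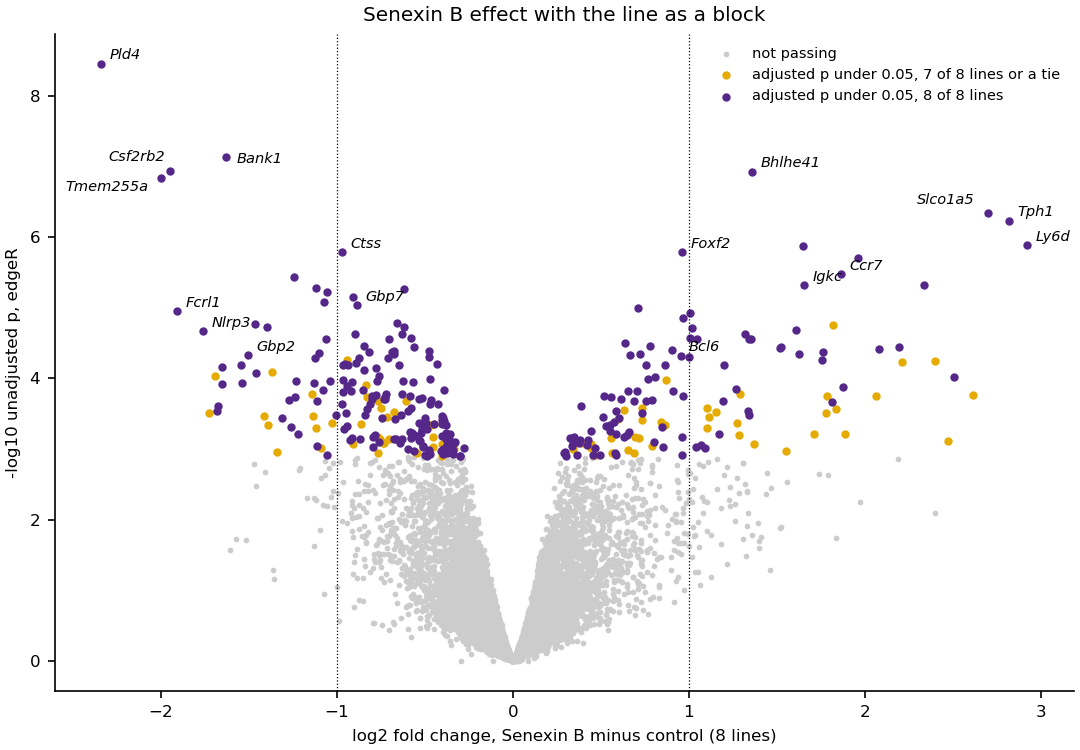
Each point is one of 12984 genes, with the pooled log2 fold change (Senexin B minus control, 8 lines) on the x axis and the -log10 of the unadjusted edgeR p on the y axis. Purple points passed an adjusted p of 0.05 with the same sign in 8 of 8 lines, yellow points passed with 7 of 8 lines or a tie, and dotted lines mark a fold change of 2. Pld4 has the smallest p, on the side of genes lower with Senexin B.

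The RNA of the inhibited kinase module showed no change past the test. Of its 7 genes 0 passed, and their median log2 fold change was -0.08. Cdk8 had a median of 56.9 CPM in controls and 55.9 CPM with Senexin B (log2 fold change 0.03 ± 0.09 SE, edgeR adjusted p = 0.916), and was higher in 3 of 8 lines. Cdk19 had 161 and 170 CPM (-0.08, adjusted p = 0.717), and Ccnc, encoding cyclin C, 49.3 and 45.2 CPM (-0.17, adjusted p = 0.428). The scaffold genes Med12 (0.23, adjusted p = 0.363), Med12l (-0.18, adjusted p = 0.676), Med13 (-0.09, adjusted p = 0.789) and Med13l (0.12, adjusted p = 0.729) did not pass either. Med12l overlaps other genes on the opposite strand, and counting ignored strand, so its reads are uncertain. The same holds for Med13, which overlaps Brip1os (35827 counts), and for Ccnc, which overlaps Tstd3 (2777 counts).

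The gene with the smallest p was Pld4, an endolysosomal exonuclease that trims single-stranded nucleic acids before they reach Toll-like receptors. Controls held 13.8 CPM at the lowest, 20.1 at the median and 55.1 at the highest, and Senexin B libraries 1.44, 4.12 and 13.4 CPM. It was the only gene past the adjusted p limit whose control and Senexin B libraries did not overlap (0.0077% of genes tested). Groups failed to overlap in 2 genes in all (0.0154%). The log2 fold change was -2.34 ± 0.15 (SE, edgeR adjusted p = 4.57e-05), a 5.06-fold loss, and the difference ran from -3.16 to -1.70 over the 8 lines. Pld4 belongs to a list of 12 genes of endosomal nucleic acid sensing, of which 11 were tested, 3 fell and 0 rose, where 1.52% of all genes fell and 1.04% rose. The median of the list was -0.42, against -0.01 for all genes, and the summed level of the list was lower with Senexin B in 8 of 8 lines. The list includes Pld4 itself and was chosen with earlier results of these data known, so these values are descriptive. Tlr9, the endosomal receptor for unmethylated DNA, went from a median of 44.7 to 24.5 CPM (-0.87 ± 0.14, adjusted p = 0.00957). Cd180 went from 139 to 110 CPM (-0.66, adjusted p = 0.037). It encodes a surface relative of Toll-like receptors on B cells, so it is on the list without being endosomal. The call for Cd180 was lost in 7 of the 8 fits that left out a line (adjusted p up to 0.0915), those for Pld4 and Tlr9 in none. Tlr7 (-0.61, adjusted p = 0.15), the chaperone gene Unc93b1 (-0.30, adjusted p = 0.316) and the adaptor gene Myd88 (0.06, adjusted p = 0.802) did not pass.

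Nlrp3, the sensor subunit of the inflammasome, ranged from 5.01 to 58.8 CPM in controls (median 24.2) and from 2.31 to 19.8 CPM with Senexin B (median 6.51). The ranges overlapped between lines, but Nlrp3 was lower in 8 of 8 lines (log2 fold change -1.76 ± 0.25, edgeR adjusted p = 0.00829). Among single genes chosen after the values were seen, Casp1, the protease that the inflammasome activates, fell (-0.82 ± 0.13, adjusted p = 0.00947), as did Card6, a caspase recruitment domain protein (-0.84, adjusted p = 0.00941), Ly96, the co-receptor of Toll-like receptor signaling (-0.96, adjusted p = 0.0314), and Ctss, a lysosomal cysteine protease that processes antigens and Toll-like receptors (-0.97 ± 0.11, adjusted p = 0.00195). Each of these was lower in 8 of 8 lines, and the call for Ly96 was lost in 5 of the 8 fits that left out a line (adjusted p up to 0.0846). Aim2, another inflammasome sensor, did not pass (-0.25, adjusted p = 0.324, higher in 2 of 8 lines). Plasmacytoid dendritic cells use Pld4 and Tlr9 too, and the plasmacytoid markers Siglech and Ccr9 had means of 0.0122 and 0.187 CPM. Other genes on the list of NK and plasmacytoid markers were higher, Tcf4 with a mean of 148 CPM (-0.31, adjusted p = 0.139) and Irf7 with a control median of 4.77 CPM (-1.07, adjusted p = 0.0543), each lower in 7 of 8 lines without passing, and the summed list was lower in 7 of 8 lines. Their part in the result was not tested. In bulk RNA, fewer cells of a type and less RNA per cell cannot be told apart.

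Interferon-inducible defense genes were among those that fell. They included guanylate-binding proteins, large GTPases that attack the membranes of intracellular pathogens. Gbp2 went from a control median of 40.0 CPM (28.1 to 109) to 20.3 CPM (2.87 to 31.2) with Senexin B (-1.504 ± 0.234, edgeR adjusted p = 0.00953). Gbp7 went from 279 to 154 CPM (-0.88 ± 0.12, adjusted p = 0.00538), Gbp3 from 57.2 to 36.2 CPM (-0.78, adjusted p = 0.0109) and Gbp4 from 16.6 to 8.61 CPM (-0.96, adjusted p = 0.014). Zbp1, a sensor of Z-form nucleic acids, went from 9.93 to 4.25 CPM (-1.22, adjusted p = 0.0348). These 5 genes were each lower in 8 of 8 lines. Without wildtype line 3 the adjusted p of Gbp4 was 0.0514, and the call for Zbp1 was lost in 5 of the 8 fits that left out a line (adjusted p up to 0.0853).

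Many genes of the interferon program did not pass. Stat2 (-0.01, edgeR adjusted p = 0.983), Irf1 (-0.17, adjusted p = 0.512) and Irf9 (0.09, adjusted p = 0.798), which encode transcription factors of the interferon response, did not pass. Neither did the antiviral gene Isg15 (-0.55, adjusted p = 0.279) or Irf7, a regulator of type I interferon (-1.07, adjusted p = 0.0543). Among genes of peptide presentation, Tap1 (0.24, adjusted p = 0.173) and B2m (0.06, adjusted p = 0.89) did not pass. Ifngr2, a chain of the receptor for interferon gamma, rose in 8 of 8 lines (0.50, adjusted p = 0.0485), a call lost in 6 of the 8 fits that left out a line (adjusted p up to 0.126).

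Gene families chosen by symbol after the values were seen gave the wider picture. All 7 guanylate-binding protein genes tested had negative log2 fold changes and 5 passed, with a family median of -0.88. All 11 immunity-related GTPase genes tested were negative and 7 passed, with a median of -1.02. Of all 12984 genes 6641 were negative and 1.52% fell, and the families were picked with these values in view, so these counts are descriptive. Tgtp2 (-1.04, edgeR adjusted p = 0.0141), Irgm2 (-0.72, adjusted p = 0.0178) and Ifi47 (-0.58, adjusted p = 0.0367) were lower in 8 of 8 lines, with calls lost in 1, 1 and 7 of the 8 fits that left out a line (adjusted p up to 0.0507, 0.0601 and 0.09). The call for Gbp9 was lost in 4 (up to 0.0789). Iigp1, also counted as passing, was tested in 5 of these fits and lost its call in 1 (adjusted p up to 0.0589). Of the interferon-inducible p200 proteins, which bind DNA in the nucleus and cytosol, 9 were tested and Ifi206, Ifi208 and Ifi213 fell, with calls lost in 2, 1 and 6 fits (adjusted p up to 0.0601, 0.0567 and 0.129). Of the Schlafen genes, growth regulators induced by interferon, 5 were tested and Slfn5 and Slfn8 fell. Class I genes mostly had the opposite sign. Of 11 H2-Q, H2-T and H2-M genes tested, 10 had positive values, 3 rose and 0 fell, where 1.04% of all genes rose. The classical genes H2-K1 (0.31, adjusted p = 0.131) and H2-D1 (0.21, adjusted p = 0.223) did not pass and were higher in 7 of 8 lines. H2-Q7, which encodes an antigen-presenting molecule, rose from a median of 69.8 to 114 CPM (0.97 ± 0.18, adjusted p = 0.0178), H2-Q6 from 96.5 to 151 CPM (0.64, adjusted p = 0.00919) and H2-Q5, higher in 7 of 8 lines, from 13.9 to 26.1 CPM (0.69, adjusted p = 0.0365). The call for H2-Q5 was lost in 6 fits (adjusted p up to 0.0882). Gbp4 and Gbp9 overlap, and where members are close tandem copies the split of reads between them is uncertain.

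**Figure D2:**
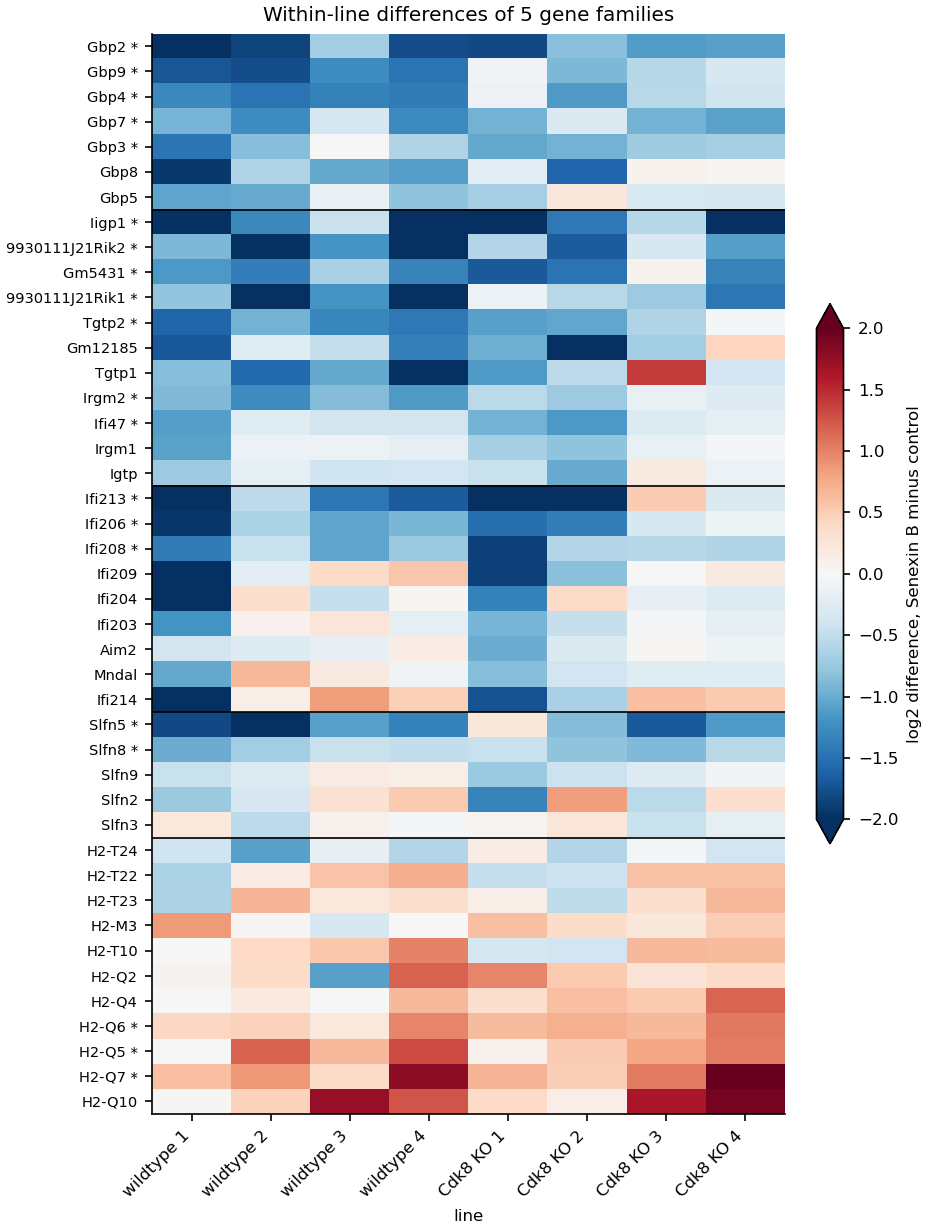
Rows are the tested genes of 5 families (from top: guanylate-binding proteins, immunity-related GTPases, p200 family, Schlafen family, H2-Q/T/M genes), columns are the 8 lines, and color gives the log2 difference, Senexin B minus control, within a line (color limits -2 and 2). A star marks an adjusted p under 0.05. Most cells of both GTPase families are blue (lower with Senexin B), those of the p200 family are darkest in wildtype 1 and Cdk8 KO 1, and those of H2-Q genes are mostly red (higher).

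Promoters of 5 GTPase genes that fell are shown because each holds the sequence searched for, so they are examples and not support. The windows run from 250 bases before to 50 bases after the start of a gene and come from RefSeq (build GRCm38.p6). They were searched on both strands for GAAA, any 2 bases and GAAA again, here called the GAAA repeat and the core of the element that interferon-activated complexes bind, a search added after the values were seen, and for TTCNNNGAA, the core of the element that STAT dimers bind, which reads the same on both strands. Of the 18 GTPase genes tested, 14 had a window. The GAAA repeat was in the windows of 11 of these 14 (78.6%), against 3.99% of all 27025 genes with a window, 9.38% of genes that fell and 3.17% of genes that rose in 8 of 8 lines. Of the 12 fallen genes behind the 9.38%, 6 are among these GTPase genes. TTCNNNGAA was in 7 of the 14 (50.0%), against 9.55% of all genes. The repeat did not follow the call. Of the 9 genes with a window that passed, 6 held it (among them 9930111J21Rik1, whose call was lost in 7 of the 8 fits that left out a line, adjusted p up to 0.114), and Ifi47, Gm5431 and 9930111J21Rik2 held neither motif within the window, which for 9930111J21Rik2 ends inside the stretch where its paralog 9930111J21Rik1 holds the repeat, while Irgm1, Gm12185, Tgtp1, Igtp and Gbp5, which did not pass, all held it. The counts are a description and not a test, since tandem copies on chromosomes 3 and 11 share their sequence. Capitals mark matches to either motif as read along the strand of the gene.
Gbp2, chr3:142620413-142620712, plus strand: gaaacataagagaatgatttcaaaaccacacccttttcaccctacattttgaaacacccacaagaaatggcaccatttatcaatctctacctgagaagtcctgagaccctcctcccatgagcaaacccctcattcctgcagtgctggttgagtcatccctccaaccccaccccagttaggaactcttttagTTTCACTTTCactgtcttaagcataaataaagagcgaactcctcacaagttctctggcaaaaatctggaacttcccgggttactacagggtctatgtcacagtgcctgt
Gbp7, chr3:142530086-142530385, plus strand: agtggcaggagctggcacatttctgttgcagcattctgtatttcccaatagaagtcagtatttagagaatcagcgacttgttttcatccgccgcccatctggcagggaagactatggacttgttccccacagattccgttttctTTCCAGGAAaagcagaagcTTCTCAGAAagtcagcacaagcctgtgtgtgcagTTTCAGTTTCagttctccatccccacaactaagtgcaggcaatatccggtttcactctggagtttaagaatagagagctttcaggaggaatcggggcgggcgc
Gbp3, chr3:142559794-142560093, plus strand: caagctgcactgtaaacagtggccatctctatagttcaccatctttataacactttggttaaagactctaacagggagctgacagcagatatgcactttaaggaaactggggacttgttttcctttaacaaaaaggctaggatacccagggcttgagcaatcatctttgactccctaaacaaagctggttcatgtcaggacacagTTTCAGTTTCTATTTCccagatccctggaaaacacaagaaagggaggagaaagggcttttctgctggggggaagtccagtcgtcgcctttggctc
Tgtp2, chr11:49064163-49064462, minus strand: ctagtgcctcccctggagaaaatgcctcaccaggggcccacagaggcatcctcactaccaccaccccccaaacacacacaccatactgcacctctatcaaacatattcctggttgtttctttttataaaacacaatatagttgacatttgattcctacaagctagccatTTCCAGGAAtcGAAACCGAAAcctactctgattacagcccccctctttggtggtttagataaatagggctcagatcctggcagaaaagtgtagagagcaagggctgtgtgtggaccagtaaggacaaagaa
Irgm2, chr11:58214727-58215026, plus strand: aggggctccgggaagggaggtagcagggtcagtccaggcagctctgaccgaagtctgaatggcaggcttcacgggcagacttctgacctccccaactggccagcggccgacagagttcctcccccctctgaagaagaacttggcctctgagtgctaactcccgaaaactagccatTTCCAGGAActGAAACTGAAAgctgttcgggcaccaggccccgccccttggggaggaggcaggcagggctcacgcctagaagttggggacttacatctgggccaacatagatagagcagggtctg
In Tgtp2 and Irgm2 a TTCNNNGAA match ends 2 bases before a GAAA repeat. Gbp2, Gbp3 and Gbp7 hold the repeat on the other strand, where it reads TTTC, 2 bases and TTTC, and Gbp2 and Gbp3 hold no TTCNNNGAA. A match does not show that a factor binds there.

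Some receptors and adaptors of B-cell and cytokine signaling were also lower. Bank1, a scaffold of B-cell receptor signaling, had a control median of 29.7 CPM (4.15 to 73.1) and 9.37 CPM (1.18 to 22.7) with Senexin B. Lines differed widely in their level, but the change was similar in each (log2 fold change -1.63 ± 0.14, edgeR adjusted p = 0.000382, lower in 8 of 8 lines). Fcrl1, a co-receptor that amplifies B-cell receptor signals, went from 19.8 to 4.74 CPM (-1.91 ± 0.26, adjusted p = 0.00608). Csf2rb2, which encodes the IL-3-specific beta chain, had 23.7 to 75.7 CPM in controls (median 38.7) and 5.25 to 23.8 CPM with Senexin B (median 8.91), so that the ranges met only at their edges. It fell by 1.95 on the log2 scale (SE 0.17, adjusted p = 0.000382). Its neighbor and paralog Csf2rb, the common beta chain of the receptors for IL-3, IL-5 and GM-CSF, went from 167 to 72.8 CPM (-0.94 ± 0.15, adjusted p = 0.01, lower in 7 of 8 lines). Of 19 listed cytokine receptors, 17 were tested, 2 fell and Ifngr2 rose (1.52% and 1.04% of all genes). Those that fell are the neighboring paralogs Csf2rb2 and Csf2rb, and how reads split between them was not tested.

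The windows of Csf2rb2 and Pld4 are shown as those of the cytokine receptor and of the exonuclease that fell most. Csf2rb2 holds 1 TTCNNNGAA (in capitals), and Pld4 holds neither this motif nor CACGTG.
Csf2rb2, chr15:78305672-78305971, minus strand: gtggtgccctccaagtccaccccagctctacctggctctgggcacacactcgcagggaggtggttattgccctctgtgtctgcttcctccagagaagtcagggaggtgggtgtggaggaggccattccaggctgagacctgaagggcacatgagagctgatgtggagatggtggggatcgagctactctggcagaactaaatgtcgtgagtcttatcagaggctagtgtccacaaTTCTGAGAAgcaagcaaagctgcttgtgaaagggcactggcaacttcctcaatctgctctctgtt
Pld4, chr12:112760405-112760704, plus strand: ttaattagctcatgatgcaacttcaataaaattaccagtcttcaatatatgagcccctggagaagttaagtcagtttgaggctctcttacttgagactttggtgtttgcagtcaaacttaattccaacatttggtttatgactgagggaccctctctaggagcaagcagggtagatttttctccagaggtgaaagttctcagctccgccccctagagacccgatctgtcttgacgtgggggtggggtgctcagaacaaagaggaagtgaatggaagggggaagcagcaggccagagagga
TTCNNNGAA was in the windows of 13 genes that fell in 8 of 8 lines (10.2% of those with a window), 5 of 63 that rose (7.94%) and 8.30% of tested genes.

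Other genes that fell in 8 of 8 lines encode membrane and signaling proteins. Tmem255a, a transmembrane protein of little known function, went from a median of 22.4 CPM (4.71 to 77.9) to 5.23 CPM (0.43 to 13.6; log2 fold change -2.0 ± 0.18, edgeR adjusted p = 0.000382). It overlaps Zbtb33 on the other strand, so its reads are partly uncertain. Tmem176b, an intracellular cation channel of immune cells, went from 5.24 to 2.24 CPM (-1.24, adjusted p = 0.00344) and overlaps Tmem176a. Milr1, an inhibitory receptor first described on mast cells, went from 27.5 to 12.8 CPM (-1.07, adjusted p = 0.00516) and overlaps Polg2 (1233 counts) on the other strand. Plxnc1, a semaphorin receptor (-1.40, adjusted p = 0.00788), Pde4a, which degrades cyclic AMP (-1.46, adjusted p = 0.00779), Dusp3, a phosphatase acting on MAP kinases (-1.06, adjusted p = 0.00832), Rab36, a small GTPase of vesicle traffic (-1.13, adjusted p = 0.00957), and Serpinf1, a secreted serpin (-1.12, adjusted p = 0.00397), followed. The 14 genes with the smallest p among those that fell past both limits in 8 of 8 lines, from Pld4 to Rab36, kept an adjusted p under 0.05 in each fit that left out a line. Chosen after the values were seen, Stat3 fell by 0.47 on the log2 scale (adjusted p = 0.014) and Lyn, a Src-family kinase of B cells, by 0.43 (adjusted p = 0.0101), each in 8 of 8 lines, and Vim, the intermediate filament vimentin, went from 499 to 255 CPM (-0.94, adjusted p = 0.0101).

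**Figure D3:**
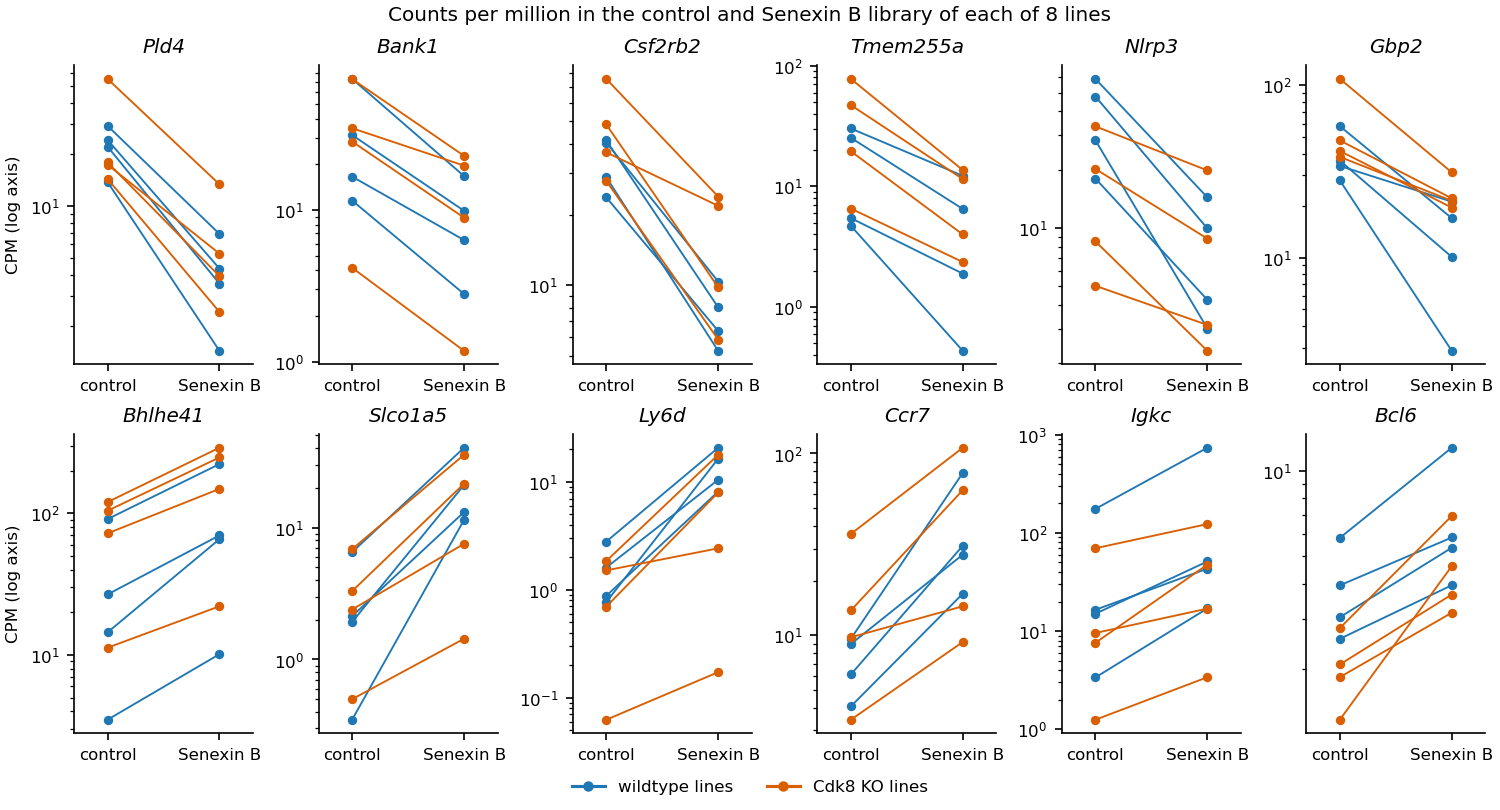
CPM (log axis) in the control and Senexin B library of each line for 6 genes that fell (top row) and 6 that rose (bottom row), with a line joining the libraries of one cell line, blue for wildtype and orange for Cdk8 KO. The slopes share a direction in 8 of 8 lines for all 12 genes, while the levels of genes such as Igkc, from 1.25 to 176 CPM in controls, spread widely between lines.

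Genes that rose included some surface molecules of B cells and some immunoglobulin constant genes. Ly6d, a surface marker of B-lineage commitment, had 1 to 48 reads and a median of 1.19 CPM in controls, and 3 to 288 reads and a median of 9.28 CPM with Senexin B. It had the largest pooled change among genes past both limits (2.92 ± 0.32, edgeR adjusted p = 0.00192), higher in 8 of 8 lines. Ccr7, the chemokine receptor that brings lymphocytes to lymph nodes, went from a median of 9.27 CPM (3.44 to 36.1) to 29.5 CPM (9.20 to 108; 1.86 ± 0.22, adjusted p = 0.00335). Fcrla, an intracellular Fc receptor-like protein of B cells, rose in 7 of 8 lines (1.29, adjusted p = 0.0351), a call lost in 6 of the 8 fits that left out a line (adjusted p up to 0.0971). Cd22 (0.22, adjusted p = 0.52) and Ighd (0.13, adjusted p = 0.855) did not pass. Other surface molecules of later B-cell stages had negative values. Fcrl1 fell, as given above, and Ltb (-0.87, adjusted p = 0.13), Cd86 (-0.75, adjusted p = 0.341), Cr2 (-0.73, adjusted p = 0.199) and Tnfrsf13c (-0.53, adjusted p = 0.111) did not pass.

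Igkc, the constant segment of the kappa light chain, ranged from 1.25 to 176 CPM in controls (median 12.3) and from 3.39 to 739 CPM with Senexin B (median 45.5). Levels spread widely between lines, yet each line was higher with Senexin B (1.66 ± 0.20, edgeR adjusted p = 0.00388). Igkc lies within the gene model Gm30211 on the same strand, which also rose (1.76), so the split of reads between them is uncertain. Ighg2b, a gamma heavy chain constant gene, went from a median of 4.30 to 30.9 CPM (2.34 ± 0.28, adjusted p = 0.00388), also in 8 of 8 lines. Of 6 tested immunoglobulin constant and J chain genes, a family chosen after the values were seen, these 2 rose, where 1.04% of all genes rose. Ighm, the most abundant with a control median of 2687 CPM, did not pass (0.19, adjusted p = 0.328), nor did Jchain (-0.31, adjusted p = 0.419). Ctla4, an inhibitory receptor of the CD28 family, rose from 0.682 to 2.10 CPM (1.65, adjusted p = 0.00192), with 1 to 56 reads in controls. It overlaps Rpl18-ps1 (702 counts) on the same strand.

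Among 26 B-lineage transcription factors, 2 rose and 0 fell, where 1.04% of all genes rose and 1.52% fell. Bhlhe41, a circadian basic helix-loop-helix repressor that binds E-boxes and is used by B-1a cells, had a control median of 49.5 CPM (3.49 to 120) and 109 CPM (10.1 to 291) with Senexin B. It had the smallest p of all genes that rose (1.36 ± 0.12, edgeR adjusted p = 0.000382), and its difference lay between 0.96 and 2.18 in every line. Bcl6, the repressor that directs germinal center B cells, went from 2.67 to 4.99 CPM (0.95 ± 0.15, adjusted p = 0.00953). The factors that set B-cell identity did not pass, among them Pax5 (0.02, adjusted p = 0.959), Ebf1 (-0.03, adjusted p = 0.951) and Ikzf1 (0.01, adjusted p = 0.959), and of 18 early B-cell genes tested Cd79b alone passed. Cd79b, a signaling chain of the B-cell receptor, went from 979 to 760 CPM (-0.38, adjusted p = 0.0341), lower in 8 of 8 lines, a call lost in 7 of the 8 fits that left out a line (adjusted p up to 0.0981). Rag1, which cuts antigen receptor genes, was higher in 5 lines and lower in 3 (0.69, adjusted p = 0.509).

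The window of Bhlhe41 is shown because the protein binds E-boxes of the form CACGTG, and its own promoter holds 1 (in capitals).
Bhlhe41, chr6:145865371-145865670, minus strand: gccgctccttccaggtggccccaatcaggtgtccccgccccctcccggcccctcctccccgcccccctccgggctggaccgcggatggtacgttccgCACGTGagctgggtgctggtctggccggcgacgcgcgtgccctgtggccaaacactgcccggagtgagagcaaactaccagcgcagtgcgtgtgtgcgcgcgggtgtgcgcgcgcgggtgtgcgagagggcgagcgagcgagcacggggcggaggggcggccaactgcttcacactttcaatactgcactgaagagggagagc
CACGTG reads the same on both strands and was in the windows of 8.09% of all genes, 12.0% of tested genes, 9 of 63 genes that rose (14.3%) and 12 that fell (9.38%) in 8 of 8 lines. A gene model on the opposite strand of Bhlhe41, Gm43909, overlaps it and also rose, so the split of reads between them is uncertain.

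Single genes of transport and metabolism rose too. Slco1a5, an uptake transporter for organic anions, went from a median of 2.26 CPM (0.35 to 6.86) to 17.1 CPM (1.44 to 40.3), and was higher in 8 of 8 lines (log2 fold change 2.70 ± 0.27, edgeR adjusted p = 0.000981). Cyp1b1, a cytochrome P450 controlled by the aryl hydrocarbon receptor, rose from 0.677 to 1.84 CPM (1.62, adjusted p = 0.00949), with 0 to 23 reads in controls. They were the members that passed among 13 tested genes of the aryl hydrocarbon receptor, NRF2 and drug transport list (2.56% of all genes passed), and Ahr (0.52, adjusted p = 0.485) and the NRF2 target Hmox1 (-0.60, adjusted p = 0.501) did not. Tph1, the first enzyme of serotonin synthesis outside the brain, went from 0.83 to 4.63 CPM (2.82 ± 0.29, adjusted p = 0.00109), and Gstt1, a glutathione transferase, from 3.06 to 7.44 CPM (1.32, adjusted p = 0.00832). The most abundant genes that rose, in CPM per kb of exon, were Ucp2, mt-Tl1 and Slc1a5. Ucp2, a carrier of the inner mitochondrial membrane, had a median of 2429 CPM in controls and 4954 CPM with Senexin B (0.84, adjusted p = 0.0281, 7 of 8 lines). The mitochondrial leucine tRNA gene mt-Tl1 (0.66, adjusted p = 0.0337) has a short gene model and ranks here with medians of only 19.6 and 27.8 CPM. Slc1a5 encodes a glutamine transporter (0.59, adjusted p = 0.0226). Leaving out a line lost the calls for Ucp2 in 5, mt-Tl1 in 5 and Slc1a5 in 3 of 8 fits (adjusted p up to 0.0779, 0.0851 and 0.0646).

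Further genes that rose in 8 of 8 lines belong to none of these groups. Osr2, a zinc finger factor of limb and palate development, went from 4.75 to 23.4 CPM (1.61, edgeR adjusted p = 0.00807), Dchs2, a large cadherin, from 0.271 to 2.21 CPM (1.96, adjusted p = 0.00211), and Col5a3, a collagen chain, from 8.01 to 15.6 CPM (1.01, adjusted p = 0.00625). Cpeb2, a regulator of mRNA translation (1.02, adjusted p = 0.00788), and Ptger2, a prostaglandin E2 receptor (1.05, adjusted p = 0.00832) rose as well. The 14 genes with the smallest p among those that rose past both limits in 8 of 8 lines, from Bhlhe41 to Ptger2, kept an adjusted p under 0.05 in each fit that left out a line. Foxf2, a forkhead factor chosen after the values were seen, rose from a median of 159 to 292 CPM (0.96 ± 0.11, adjusted p = 0.00195).

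In the growth and signaling lists 0 to 2 genes passed per list, where 2.56% of all genes passed. Of 17 tested G1 genes 2 fell, the cyclin genes Ccnd1 (-0.63, edgeR adjusted p = 0.0242) and Ccne2 (-0.50, adjusted p = 0.0254), each lower in 8 of 8 lines, and none of 24 DNA replication or 24 mitosis genes passed (medians 0.10 and 0.09). Of the targets of STAT5 and BCR-ABL1, Dusp6, an ERK phosphatase, rose (0.39, adjusted p = 0.0207) and Spred2, an inhibitor of RAS signaling, fell (-0.40, adjusted p = 0.0254) among 20 tested. Axin2, a feedback inhibitor induced by beta-catenin, went from 7.38 to 15.1 CPM (0.91, adjusted p = 0.0169), while Ccnd1 is the member of the Wnt list that fell, and 7 were tested. Egr3, an early growth response factor, rose in 7 of 8 lines (1.71, adjusted p = 0.0348), and Jund, an AP-1 subunit, was lower in 7 of 8 (-0.40, adjusted p = 0.0492). Icam1, an adhesion molecule induced by NF-kB, fell from 31.2 to 21.6 CPM (-0.66 ± 0.09, adjusted p = 0.00779) as the member of 13 that passed, and Mxd1, an antagonist of MYC, fell (-0.49, adjusted p = 0.0499) among 11. Except for Icam1, the calls in this paragraph were lost in 2 to 8 of the 8 fits that left out a line, with adjusted p up to 0.141.

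Aldoa, the glycolytic aldolase (428 to 372 CPM, -0.46, edgeR adjusted p = 0.0287), and Crhbp, a secreted binding protein of corticotropin-releasing hormone (244 to 144 CPM, -0.90, adjusted p = 0.00832), were with Cd79b the most abundant genes that fell, per kb of exon. The call for Aldoa was lost in 7 of the 8 fits that left out a line (adjusted p up to 0.076). At the fold limit of 2, Izumo1r (1.00) and Gbp9 (-1.01) lay just inside and H2-Q7 (0.97) and Ifi206 (-0.97) just outside. The calls for Gbp9 and Ifi206 depended on the lines included, as given above.

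**Figure D4:**
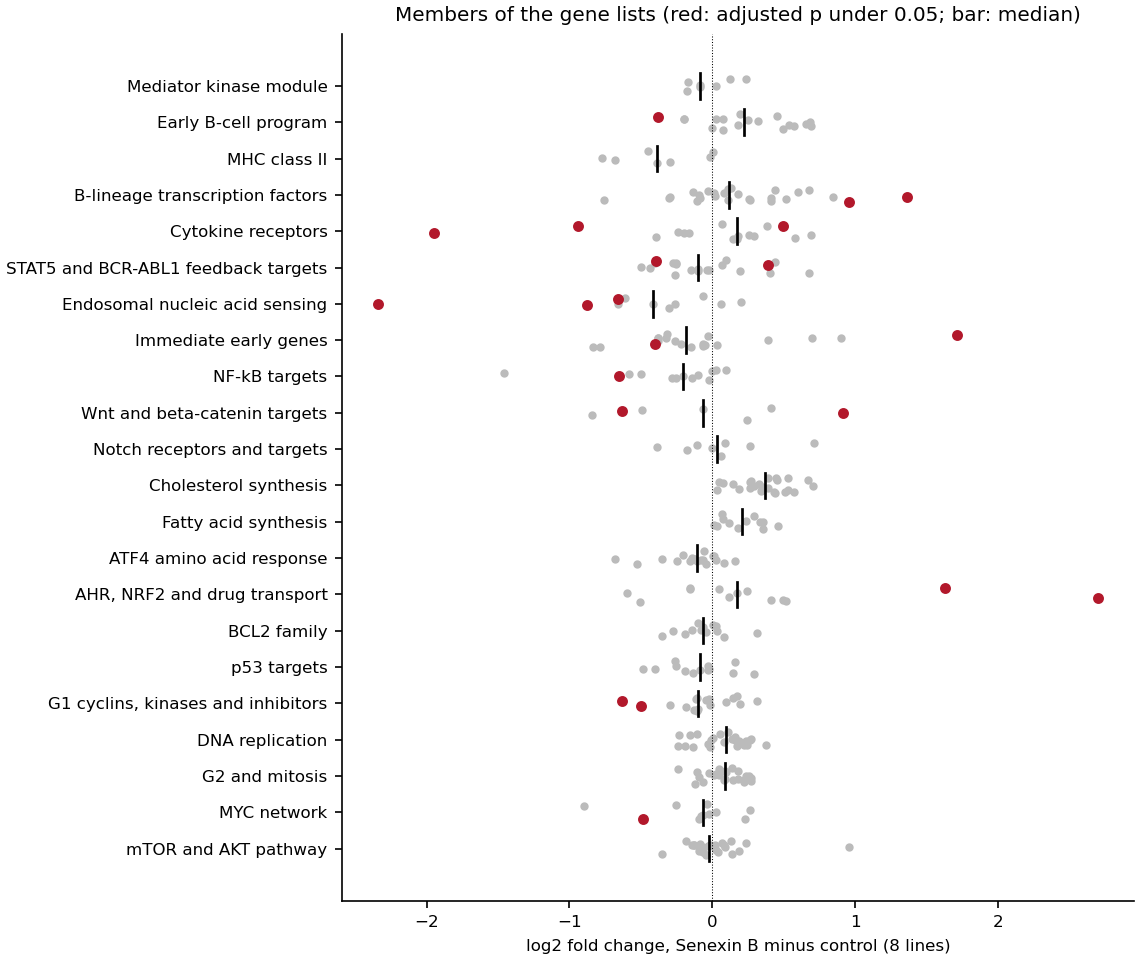
Pooled log2 fold changes of the tested members of 22 gene lists (x axis), with grey points for members that did not pass, red points for an adjusted p under 0.05 and a black bar for the list median; the vertical scatter within a row has no meaning. Cholesterol synthesis and fatty acid synthesis lie wholly to the right of 0 without a red point.

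The lines parted in several lists, metabolic ones among them. All 24 tested cholesterol synthesis genes and all 12 fatty acid synthesis genes had positive pooled log2 fold changes (medians 0.37 and 0.21), but 0 passed (edgeR adjusted p) and 0 had the same sign in 8 of 8 lines. Within lines the median of the cholesterol list was 1.06 in wildtype 2, 1.08 in wildtype 3, 1.03 in wildtype 4 and 0.96 in Cdk8 KO 3, but -0.41 in wildtype 1 and -0.99 in Cdk8 KO 1, and near 0 in Cdk8 KO 2 (-0.01) and Cdk8 KO 4 (0.09). The amino acid response driven by ATF4 had the opposite sign in 7 of 8 lines. Its 19 genes had medians of 1.14 in wildtype 1 and 0.91 in Cdk8 KO 1, and of -0.62, -1.25 and -0.91 in wildtype 2, 3 and 4, and none passed. In Cdk8 KO 2, 3 and 4 the medians were 0.50, -0.44 and 0.11, so that in Cdk8 KO 4 both lists were slightly positive. The early B-cell list had medians of -0.16 in wildtype 1 and -0.61 in Cdk8 KO 1 against 0.48, 0.46 and 1.10 in wildtype 2, 3 and 4, and the mitosis list -0.28 and -0.43 against 0.32, 0.39 and 0.53. Cdk8 KO 2, 3 and 4 had -0.16, 0.24 and 0.38 in the early B-cell list. In the mitosis list they had 0.21, 0.11 and -0.07. Lines of each genotype thus stood on either side, and the pooled values average changes of opposite sign. The labels give no batch, passage or culture date that could be set beside this split.

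**Figure D5:**
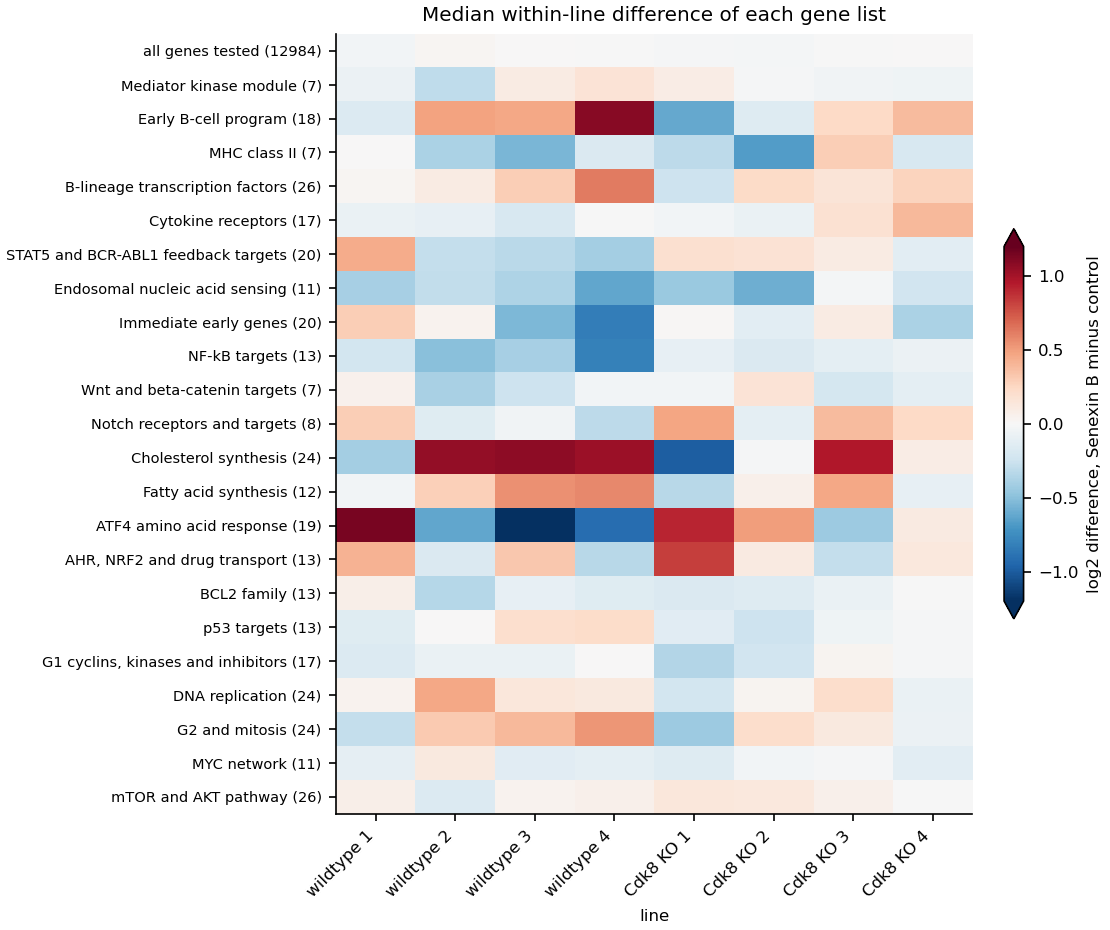
Rows are gene lists with the number of tested genes in brackets, columns are the 8 lines, and color gives the median log2 difference, Senexin B minus control, within the line (color limits -1.2 and 1.2). The row of cholesterol synthesis is red in wildtype 2 to 4 and Cdk8 KO 3 and blue in wildtype 1 and Cdk8 KO 1, and the row of the ATF4 response has the opposite color in these 6 lines.

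Other lists had no member past the adjusted p limit: MHC class II (7 tested, median log2 fold change -0.39), Notch (8, 0.03), the BCL2 family (13, -0.07), p53 targets (13, -0.09) and the mTOR and AKT pathway (26, -0.02). None of the tested markers of T cells (2), myeloid cells (2), NK and plasmacytoid cells (3), erythroid and megakaryocyte cells (1) or stroma (1) passed. The summed NK and plasmacytoid list was lower with Senexin B in 7 of 8 lines (median 164 CPM in controls, 136 CPM with Senexin B), of which Tcf4, which early B cells express as well, made up most with a mean of 148 CPM. Its part in the results above was not tested.

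Some genes that passed lay beside each other. Within 100000 bases of one another, 60 pairs of passing genes were found, involving 85 of the 332, and 53 pairs changed in the same direction. Of these pairs 4 overlap in their spans, others are tandem paralogs, and no share over all genes was computed. Whether the overlapping pairs share exons or reads was not tested. On chromosome 15, Ly6d rose with its neighbors Lynx1 (1.82, edgeR adjusted p = 0.00779) and Them6 (0.77, adjusted p = 0.014), and Csf2rb2 fell with Csf2rb. On chromosome 3, the purinergic receptor genes P2ry13 (-1.66, adjusted p = 0.0106) and P2ry12 (-1.41, adjusted p = 0.0246) fell together, as did Gbp2, Gbp3 and Gbp7, and the call for P2ry12 was lost in 4 fits (adjusted p up to 0.0789). Both P2Y genes lie within Med12l on the opposite strand. Of 42 tested histone cluster genes on several chromosomes, 4 rose (1.04% of all genes), each on chromosome 13, among them Hist1h2bb (0.81, adjusted p = 0.0136). The call for Hist1h2bb was lost in none of the 8 fits that left out a line. Those for Hist1h3e, Hist1h3f and Hist1h4f were lost in 7, 7 and 4 (adjusted p up to 0.112, 0.0949 and 0.0673). Of the 42, 38 had positive values, against 6340 of all 12984 genes. The neighbor pairs were described after the values were seen, and overlapping genes count reads without regard to strand.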

How the data were processed

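RNA was sequenced as 50 bp single-end reads from 16 mRNA libraries. The authors trimmed reads with Trimmomatic, mapped them with STAR to GRCm38 and counted exonic reads per gene with featureCounts 1.5.1, without using strand. The deposited values are whole-number counts for 50686 genes, of which 310 have no symbol here. Counts were fitted with edgeR 4.0.16 in R 4.3.3 (TMM, filterByExpr, robust quasi-likelihood, line as a block, 12984 genes), and DESeq2 1.42.0 and limma 3.58.1 were alternatives. Adjusted p-values are Benjamini-Hochberg over all tested genes. Each SE was derived as the absolute log2 fold change over the square root of the quasi-likelihood F statistic. CPM are counts per 1000000 of TMM-scaled library size, and within-line differences used a prior count of 2. Control and Senexin B libraries of the same number deviated together (correlations 0.50 to 0.87, others -0.57 to 0.17), so that numbers pair the libraries. The labels do not say whether lines came from separate mice. Named genes were up to 14 per direction with the smallest p past both limits in 8 of 8 lines, the Mediator kinase module, passing members of 29 lists (up to 5 each), the 3 most abundant passing genes per direction and those at the fold limit. Members and lists were chosen with earlier results of these data known. Some genes and lists that this rule names are not reported here. Promoters came from RefSeq. Scripts were tested on simulated data.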

Additional observations from a re-analysis of the deposited data

Results flagged for a closer look

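Of 94 sets of 8 within-line differences examined (66 named genes, 24 gene lists and 4 library measures), 10 held a line whose distance from the nearest other line was large against the whole range by Dixon's ratio. Chance alone gives this in about 1 of 20 sets. Wildtype 3 stood above the others for Bhlhe41 with a log2 difference of 2.18 (others 0.96 to 1.504), and wildtype 1 stood below them for Gbp2 with -3.23 (others -1.85 to -0.69). The change of Csf2rb2 was smallest in Cdk8 KO 2 (-0.75, others -2.43 to -1.66) and that of Fcrl1 in Cdk8 KO 1 (-0.11, others -2.70 to -1.54). Cdk8 KO 4 stood apart for Dusp6 (0.67, others 0.20 to 0.42) and for Egr3, which was lower only there (-0.95, others 1.31 to 2.55). Wildtype 2 stood apart for Med13 (-1.04, others -0.11 to 0.28), Med13l (-0.94, others -0.03 to 0.58) and the median of the mTOR and AKT pathway list (-0.17, others -0.01 to 0.14). The number of genes detected differed by -1384 (Senexin B minus control) in wildtype 1, against -126 to 855 in the other lines.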

How the results depend on the processing

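The count of genes past both limits was 104. It was 0 with no replicate block, in place of the pairing of libraries by line, and 185 with no filter on low counts, 40 with at least 10 counts in every library and 158 with DESeq2. Leaving out each line gave 63 to 150. Without the fold limit the count was 332, and 0 with no replicate block, 601 with no filter, 748 with DESeq2, 631 at an adjusted p limit of 0.1 and 135 to 399 with each line left out. The stricter filter and the absent filter change the number of genes tested (10890 and 29942), and the cause of the other changes was not tested. DESeq2 and edgeR shared 102 of the 104 genes. Of 59 named genes that passed, 59 kept their sign in each fit and passed under DESeq2 and limma-voom, and 38 passed in each fit that left out a line. Among genes that did not pass, the log2 fold change of Cdk8 ran from -0.0215 to 0.067 with each line left out, negative without wildtype line 1 or Cdk8 KO lines 1 or 2, and that of Med13 from -0.1346 to 0.0419, positive without wildtype line 2. The mean difference in library total, -254950, ranged from -518790 to 122160 and changed sign without wildtype line 1 (122160) or wildtype line 2 (105290). Differences in genes detected (56.1 to 376), mitochondrial share (0.867 to 1.63 points) and share of the 50 most abundant genes (1.46 to 2.33 points) kept their sign. The interaction called 0 genes under each alternative run (edgeR or DESeq2), with 61 to 1771 genes at unadjusted p under 0.05. Genes with few reads, such as Ly6d, Tph1, Cyp1b1 and Dchs2, are limited by depth. Each line has 1 control and 1 Senexin B library, and p-values measure the spread between these lines.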
